A study of Homo sapiens with 30 samples.

Results

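Expression of SAT1 and 7 other genes of polyamine metabolism was described in T47D breast cancer cells after siRNA knockdown of single subunits of the negative elongation factor. The 8 genes were taken by symbol, as SAT1, ODC1, AZIN1, SRM, SMS, AMD1, SMOX and PAOX, from a table of 22011 transcript clusters. SAT1 was chosen because its value was high in the siNELF-C and siNELF-E arrays, so its levels in those groups are given as a description with no test, and the other 7 genes were added because they belong to the same pathway. Of the 8 genes, 6 had a transcript cluster annotated with that symbol alone. The ODC1 cluster is annotated to ODC1 and SNORA80B together and no cluster is listed for SMS, so for these 2 genes the median over exon-level probe sets was used, 13 for ODC1 and 16 for SMS.

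The polyamines putrescine, spermidine and spermine are small positively charged molecules that bind nucleic acids and that growing cells need for protein synthesis. Ornithine decarboxylase (ODC1) makes putrescine from ornithine, and the synthases SRM and SMS add aminopropyl groups supplied through AMD1. SAT1 starts the way back by acetylating spermidine and spermine, which are then exported or oxidised by PAOX, while SMOX oxidises spermine directly. Polyamines control their own supply: they promote synthesis of antizyme, which directs ODC1 to the proteasome, and they raise SAT1 activity, partly after transcription. Breast cancer cells commonly have high ODC1 activity.

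Each of the siRNAs siNELF-A, siNELF-B, siNELF-C or siNELF-E targeted one subunit, and the control siRNA targeted luciferase. All groups were T47D cells, a luminal breast cancer line that expresses the oestrogen and progesterone receptors, transfected with 10 nM siRNA and harvested 48 hours after a medium change that itself came 48 hours after transfection. Each of the 5 groups had 3 exon arrays, which the series text calls technical repeats, so p-values measure the spread between repeats and not between cultures. How many duplexes were used per subunit is not given in the sources used here. The negative elongation factor (NELF) holds RNA polymerase II in a paused state close to the start of many genes.

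All values are log2 RMA values (background-corrected, normalised probe intensities), so a difference of 1 is a doubling. RNA of the targeted subunit was 10.7-fold lower for NELFCD in siNELF-C (adjusted p = 1.67e-05) and 6.1-fold lower for NELFE in siNELF-E (adjusted p = 2.49e-05) than in control. In siNELF-A, NELFCD and NELFE, which it did not target, were not called over 15 arrays. NELFCD changed by -0.66 (adjusted p = 0.221) and NELFE by 0.61 (adjusted p = 0.196). Over the 13 arrays without the pair named below, NELFCD was called lower and NELFE higher. Untargeted subunits moved elsewhere too, without a call. NELFCD changed by -0.64 with siNELF-B and 0.39 with siNELF-E. NELFE changed by -0.43 with siNELF-B and -0.49 with siNELF-C. The NELFA change in siNELF-A was -0.61 and did not pass the test (adjusted p = 0.176, or 0.0364 without the 2 arrays named next), and the siNELF-B target was not analysed here. Of the 15 arrays, siNELF-B replicates 2 and 3 stood apart: replicate 2 had a mean correlation of 0.985 with the control arrays but 0.945 with the other siNELF-B arrays, and replicate 3 had the lowest mean correlation with all other arrays (0.932). Results below are over 15 arrays, and calls that differ over the 13 arrays without that pair are given beside them. The interquartile range of an array's values was 3.69 to 3.91 with siNELF-A, 3.12 to 4.02 with siNELF-B and 3.61 to 3.75 with siNELF-C. It was 3.89 to 4.01 with siNELF-E and 3.95 to 4.12 in control. The siNELF-A and siNELF-C arrays did not overlap control, so results adjusted for this range cannot separate it from those knockdowns. Being the most spread, the siNELF-B arrays weigh most in that adjustment. All 8 luminal markers were present, with summed levels on the log2 scale of 13.63 to 13.71 with siNELF-A, 12.97 to 13.34 with siNELF-B, 13.40 to 13.48 with siNELF-C and 13.42 to 13.53 with siNELF-E, against 13.37 to 13.62 in control. The siNELF-B arrays lay wholly below control in this sum. The siNELF-A arrays lay wholly above it, though only just (13.63 against 13.62). KRT8, the brightest of the 8 (11.65 to 12.93 over all arrays), weighs most in the sum. For ESR1, GATA3 and PGR the highest value of all arrays was a control value (7.72, 9.88 and 10.00). In contrast, PTPRC, CD3E, PECAM1, VIM and ZEB1 lay near the bottom of the scale in every array. Other leukocyte and endothelial markers were less low: CD14 was 3.46 to 4.76, CDH5 2.59 to 3.38 and VWF 2.97 to 3.51 over all arrays. Of the basal markers, KRT14 was 4.38 to 6.29, KRT5 2.79 to 4.51 and TP63 2.46 to 3.76. The summed level of the 3 mesenchymal markers, carried by FN1, was 4.36 to 5.96 in the knockdowns against 5.80 to 6.08 in control. The part of these 2 marker sums in the results below was not tested.

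The promoters of SAT1 and ODC1 are shown because SAT1 is the gene the set was built around and ODC1 is the single member called over 15 arrays. Each is the 250 bases before the annotated start, read 5′ to 3′ along the gene, from RefSeq (GRCh38.p14). SAT1 lies on the plus strand (chrX:23782923-23783172) and ODC1 on the minus strand (chr2:10448328-10448577). RefSeq lists 2 start windows for ODC1, and the upstream one is printed. Capitals mark matches on either strand to a CCAAT box, searched as CCAAT, or to a GC box, searched as GGGCGG. The search also covered TATAAA for the TATA box and the palindrome CACGTG for the E box.
SAT1: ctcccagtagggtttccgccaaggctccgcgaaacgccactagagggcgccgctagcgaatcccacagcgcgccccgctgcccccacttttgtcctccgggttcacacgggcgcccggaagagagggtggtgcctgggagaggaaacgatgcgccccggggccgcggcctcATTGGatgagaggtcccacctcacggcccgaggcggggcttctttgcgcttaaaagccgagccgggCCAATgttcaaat
ODC1: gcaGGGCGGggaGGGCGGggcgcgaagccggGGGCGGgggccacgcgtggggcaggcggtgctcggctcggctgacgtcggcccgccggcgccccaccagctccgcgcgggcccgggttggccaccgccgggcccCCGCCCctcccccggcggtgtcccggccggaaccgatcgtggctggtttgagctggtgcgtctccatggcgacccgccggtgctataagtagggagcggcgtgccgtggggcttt
The SAT1 window held 2 matches to the CCAAT box, and the ODC1 window held 4 matches to the GC box. Neither window held the searched letters of the TATA box or the E box. Over 35116 RefSeq windows of the same length, 32% held a CCAAT box, 42.6% a GC box, 10.7% a TATA box and 6.34% an E box. The searched motifs do not overlap each other in the printed windows. G and C made up 66.4% of the SAT1 window and 78.8% of the ODC1 window, against a median of 58% over all windows. Promoters of 5 of the 8 members were found in the table.

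SAT1, the enzyme that acetylates spermidine and spermine, stood at 8.74, 8.96 and 8.88 in the siNELF-C arrays and 7.80, 8.12 and 8.08 in the siNELF-E arrays, against 6.45, 6.32 and 6.53 in control. Both sets lay wholly above control, and the siNELF-C arrays lay wholly above those of siNELF-E. The mean was 8.86 ± 0.11 in siNELF-C and 8.001 ± 0.18 in siNELF-E, against 6.44 ± 0.10 in control (SD, n = 3 each). SAT1 was thus 5.37-fold higher in siNELF-C and 2.96-fold higher in siNELF-E than in control. Among 22011 clusters ordered by change, SAT1 was number 6 from the top in siNELF-C and number 32 in siNELF-E. These bulk values cannot tell more SAT1 RNA per cell from more cells that express it.

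The siNELF-A and siNELF-B arrays did not enter the choice of SAT1. The control arrays did, since the rise was read against them, so tests of SAT1 against control are not free of the choice. In siNELF-A its values were 6.71, 7.02 and 7.44, all above the highest control array, with a mean of 7.06 ± 0.37 (SD, n = 3). The difference from control was 0.62 on the log2 scale (SE 0.30, 1.54-fold), and it did not pass the test over 15 arrays (adjusted p = 0.313). Over 13 arrays the same difference passed (SE 0.17, adjusted p = 0.0281), and 3 other settings called it too: quantile normalization (0.82, adjusted p = 0.0428), centring on the 75th percentile (0.84, adjusted p = 0.0393) and adjustment for the interquartile range (0.90, adjusted p = 0.0266). It was not called with arrays centred on medians (0.75, adjusted p = 0.115), with siNELF-A and control alone in the fit (adjusted p = 0.0903), with the replicate block (adjusted p = 0.359) or with array weights (0.57, under 1.5-fold). Measured by the median of its probe sets, SAT1 in siNELF-A overlapped control and the difference was smaller, 0.33 (adjusted p = 0.79 over 15 arrays and 0.361 over 13). In siNELF-B the values were 6.40, 7.06 and 5.51, spread on both sides of control, and the difference was -0.11 (adjusted p = 0.823).

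Ordered by mean, SAT1 was highest in siNELF-C, followed by siNELF-E, siNELF-A, control and siNELF-B. Control and siNELF-B overlapped, as did siNELF-A and siNELF-B, whereas the arrays of siNELF-C, siNELF-E and siNELF-A did not overlap one another. The difference of siNELF-B from siNELF-A was -0.74 over 15 arrays (SE 0.30, adjusted p = 0.194) and -0.66 over 13 (SE 0.24, adjusted p = 0.091). Other differences of SAT1 between knockdowns are a description: siNELF-C exceeded siNELF-A by 1.80 and siNELF-E exceeded it by 0.94.

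**Figure D1:**
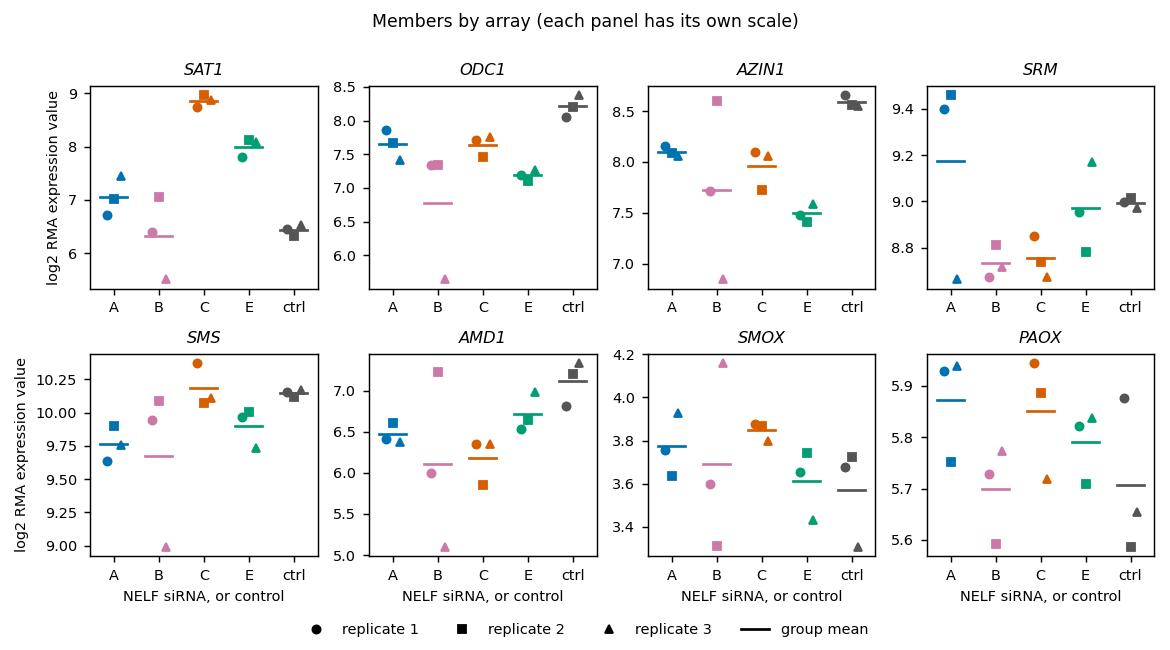
Log2 RMA value of each of the 8 genes (y axis, own scale per panel) by group (x axis, left to right A, B, C and E for the knockdowns, then control). Symbols are the 3 replicates and bars are group means; SAT1 in siNELF-C (8.74 to 8.96) and siNELF-E (7.80 to 8.12) lies above all control arrays, and siNELF-B replicate 3 is the lowest array for SAT1, ODC1, AZIN1, SMS and AMD1.

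The exon-level table measured SAT1 with 9 probe sets. All 9 were higher than control in siNELF-C and in siNELF-E, and 8 of the 9 lay above every control array in each of these groups. These counts are a description, since SAT1 was chosen on the same groups, and no share over all probe sets was computed. Probe sets 3971813 and 3971828 were dim in control, at 2.04 and 2.83, below the 25th percentile of all probe-set means (2.93). The other 7 were higher than control by 2.24 to 3.24 in siNELF-C and by 1.24 to 2.07 in siNELF-E. Probe set 3971811 had the widest gap between these knockdowns, 8.60 in siNELF-C and 7.19 in siNELF-E, against 5.36 in control. Probe set 3971813 stood at 5.13 with siNELF-C and 5.01 with siNELF-E, and at 1.93 with siNELF-A and 1.71 with siNELF-B, against its dim 2.04 in control. At 3971828 the arrays overlapped control in both groups, with means of 3.65 for siNELF-C and 3.77 for siNELF-E. In siNELF-A, 8 of the 9 probe sets were higher than control, by up to 1.05, and 3971813 was the one that was not (-0.11). None of the 9 passed the test in siNELF-A or siNELF-B, and none differed from the rest of the gene in either group.

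**Figure D2:**
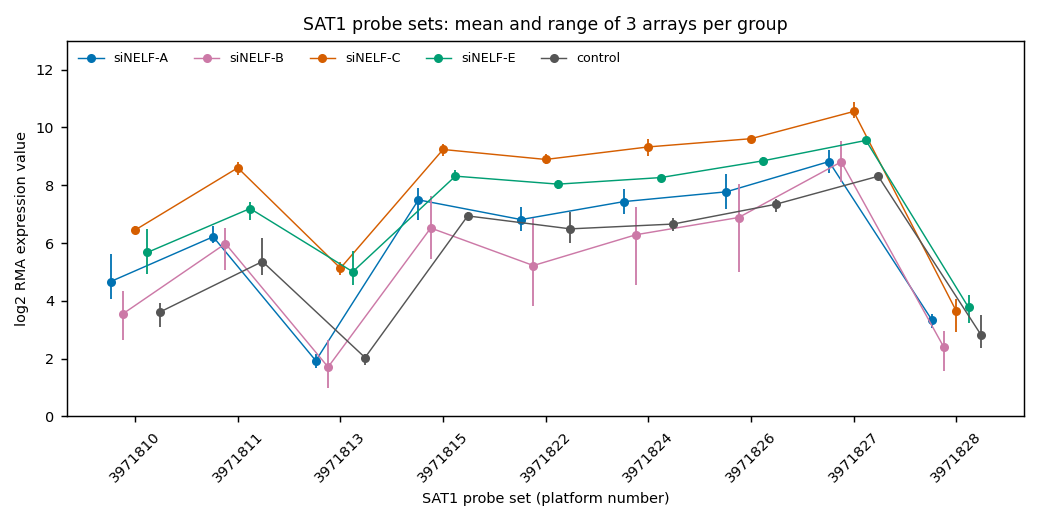
Log2 RMA value (y axis) of the 9 SAT1 probe sets in order of platform number (x axis), with the 4 knockdowns left of control at each. Points are means of 3 arrays and vertical lines run from the lowest to the highest array; siNELF-C and siNELF-E lie above control at every probe set, and siNELF-C and siNELF-E are close to each other at 3971813 (5.13 and 5.01).

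ODC1, the first and rate-limiting enzyme of polyamine synthesis, was called lower in siNELF-B. Its probe-set median was 7.34, 7.35 and 5.64 in siNELF-B, against 8.06, 8.20 and 8.37 in control. All siNELF-B arrays lay below control, with replicate 3 far below the other two. ODC1 fell by 1.43 in siNELF-B (SE 0.35, 2.7-fold lower, adjusted p = 0.043). With ODC1 measured by its probe-set median, that was the single call among the members over 15 arrays. In siNELF-B 3.2% of 16909 genes measured in this way were called lower. Over 13 arrays siNELF-B rests on 1 array, assumed to vary like the other groups, and the ODC1 change was -0.87 (adjusted p = 0.0189), where 19.6% of genes were called lower. The call depended on which arrays entered: leaving out any 1 of 13 of the arrays raised the adjusted p to between 0.0546 and 0.16, and adjustment for the array interquartile range gave -0.69 (adjusted p = 0.418). Leaving out siNELF-B replicate 2 gave -1.72 (adjusted p = 0.00147) and leaving out replicate 3 gave -0.86 (adjusted p = 0.0494), both still called. The call was lost with siNELF-B and control alone (adjusted p = 0.369), arrays centred on medians (0.0503) or the replicate block (0.0602). It held with the other scalings (0.0442 and 0.0482), the filter on dim clusters (0.0352), the intensity trend (0.0417) and array weights (7.97e-06). The SD was 0.98 in siNELF-B against 0.08 to 0.22 in the other groups, and the fit pools these spreads.

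In siNELF-E ODC1 stood at 7.19, 7.10 and 7.27, against 8.06, 8.20 and 8.37 in control, again with no overlap. The change was -1.02 (SE 0.35), which missed the threshold over 15 arrays (adjusted p = 0.137) and passed it over 13 (adjusted p = 0.000841, where 8.71% of genes were called lower) and under each of the 3 other scalings of the arrays (adjusted p = 0.0338 to 0.0435). The siNELF-E change was also called with siNELF-E and control alone, the interquartile range as covariate or array weights. It was not called with the replicate block (adjusted p = 0.169), the filter on dim clusters (0.116) or the intensity trend (0.135). In siNELF-A, ODC1 was 7.86, 7.67 and 7.42, and in siNELF-C it was 7.71, 7.46 and 7.75, all below the lowest control array. These changes, -0.56 in siNELF-A (adjusted p = 0.485) and -0.57 in siNELF-C (adjusted p = 0.337), were under the 1.5-fold that a call requires. Adjusted for the interquartile range, the siNELF-C change was 0.10, with the sign turned.

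The cluster annotated to ODC1 and SNORA80B, a small nucleolar RNA, changed by -1.08 with siNELF-B (adjusted p = 0.0239) and -1.04 with siNELF-E (adjusted p = 0.0119), and by -0.49 with siNELF-A and -0.41 with siNELF-C without passing the test. All 13 ODC1 probe sets were lower than control in each of the 4 knockdowns. All 13 lay below every control array with siNELF-B and with siNELF-E, against 5 with siNELF-A and 7 with siNELF-C. The share of all probe sets that did so was not computed, and probe sets of one gene are read from the same arrays. Of all transcript clusters, 22.5% did so with siNELF-A, 16.6% with siNELF-B, 31.3% with siNELF-C and 21.1% with siNELF-E. Clusters are another unit, so these shares are no background for counts of probe sets. The ODC1 probe set 2540166 was called lower in siNELF-E (7.96 against 9.08 in control, adjusted p = 0.0482).

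AZIN1, the antizyme inhibitor, resembles ODC1 in sequence but has no decarboxylase activity, and it protects ODC1 by binding antizyme. It stood at 7.48, 7.41 and 7.59 in siNELF-E and at 8.15, 8.09 and 8.06 in siNELF-A, against 8.65, 8.56 and 8.55 in control. In siNELF-C it was 8.10, 7.72 and 8.06, also below every control array. The siNELF-B arrays were scattered, at 7.71, 8.60 and 6.85, and replicate 2 lay within control. The largest change was that in siNELF-E, -1.09 (SE 0.31, 2.14-fold lower), which just missed the threshold over 15 arrays (adjusted p = 0.0566) and passed over 13 (SE 0.11, adjusted p = 5.6e-05) and under each of the 3 other scalings (adjusted p = 0.00153 to 0.0184).

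Changes of AZIN1 in the other knockdowns were -0.87 with siNELF-B (adjusted p = 0.0934), -0.63 with siNELF-C (adjusted p = 0.224) and -0.49 with siNELF-A (adjusted p = 0.452). Over 13 arrays siNELF-B (-0.88, adjusted p = 0.00392) and siNELF-C (-0.63, adjusted p = 0.00183) were called and siNELF-A was not, being 1.4-fold. With the array interquartile range as covariate the AZIN1 changes were -0.04 in siNELF-B (adjusted p = 0.951) and -0.02 in siNELF-C (adjusted p = 0.952), and by probe-set medians over 13 arrays siNELF-B was not called (adjusted p = 0.0682). All 18 AZIN1 probe sets were lower than control in every knockdown, by 0.66 to 1.35 in siNELF-E (log2 changes of -1.35 to -0.66), where 17 of them lay below all control arrays. The corresponding number was 14 with siNELF-A, 4 with siNELF-B and 16 with siNELF-C, again without a share over all probe sets. Probe set 3147619 was called in siNELF-E (7.42 against 8.73 in control, adjusted p = 0.0498).

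AMD1, S-adenosylmethionine decarboxylase, makes the aminopropyl donor that the synthases use. Its values were 6.35, 5.85 and 6.34 in siNELF-C and 6.41, 6.61 and 6.37 in siNELF-A, against 6.82, 7.20 and 7.34 in control, with no overlap. In siNELF-E they were 6.54, 6.64 and 6.98, and in siNELF-B 6.00, 7.23 and 5.10, both overlapping control. The changes were -0.94 with siNELF-C (adjusted p = 0.159), -0.65 with siNELF-A (adjusted p = 0.426), -1.01 with siNELF-B (adjusted p = 0.115) and -0.40 with siNELF-E (adjusted p = 0.727). None passed over 15 arrays. Over 13 arrays AMD1 was called lower in siNELF-C (1.91-fold, adjusted p = 0.00323), siNELF-A (1.57-fold, adjusted p = 0.0322) and siNELF-B (2.17-fold, adjusted p = 0.0117), and not in siNELF-E (adjusted p = 0.179). With the interquartile range as covariate AMD1 changed by -0.17 with siNELF-C (adjusted p = 0.675), -0.20 with siNELF-A (adjusted p = 0.54) and 0.038 with siNELF-B (adjusted p = 0.971). By probe-set medians over 13 arrays it was not called in siNELF-A (adjusted p = 0.145).

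Of the 16 AMD1 probe sets, 15 were lower than control in each knockdown. They spread widely in siNELF-C, where the lowest, 2921328, stood at 4.12 against 6.79 in control. RefSeq names 4 AMD1 pseudogenes, so some of the signal on these probe sets may belong to near copies and the values carry that uncertainty. The same holds for SRM, with 3 named pseudogenes, and for SMS, with 1.

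**Figure D3:**
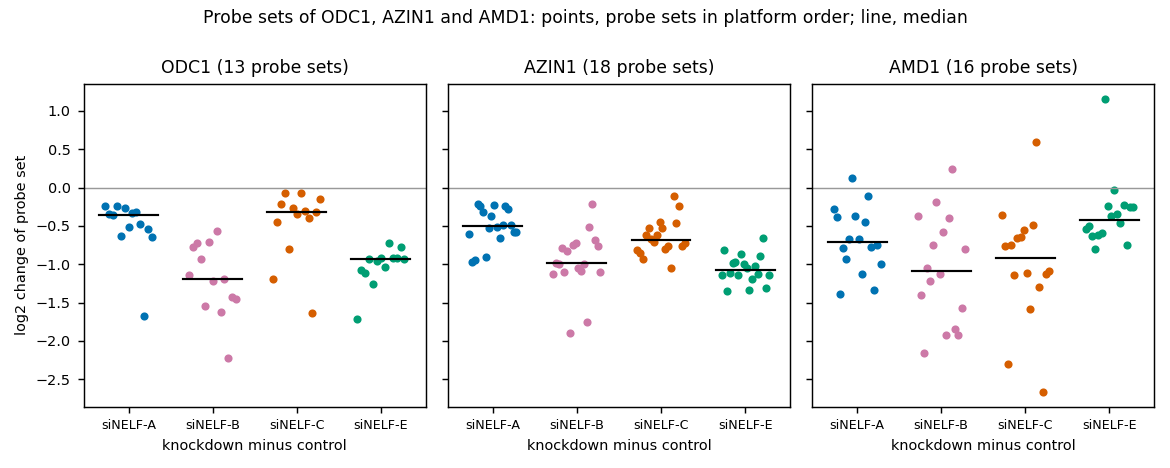
Log2 change from control (y axis) of each probe set of ODC1 (13), AZIN1 (18) and AMD1 (16) in the 4 knockdowns (x axis), over 15 arrays. Points are probe sets in platform order and black lines are medians; every ODC1 and AZIN1 point lies below 0, as do 15 of 16 AMD1 points in each knockdown.

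Neither synthase was called in any knockdown. SRM, spermidine synthase, ranged from 8.66 to 9.46 with siNELF-A, 8.67 to 8.81 with siNELF-B, 8.68 to 8.85 with siNELF-C and 8.78 to 9.17 with siNELF-E, against 8.97 to 9.02 in control. Its changes were 0.18 with siNELF-A (adjusted p = 0.664), -0.26 with siNELF-B (0.353), -0.24 with siNELF-C (0.438) and -0.02 with siNELF-E (0.98). The 95% intervals of these changes reached no further than -0.66 and 0.58. The siNELF-B and siNELF-C arrays lay below control, and after quantile normalization the sign turned in each knockdown but siNELF-A. SMS, spermine synthase, had probe-set medians of 9.64, 9.90 and 9.76 in siNELF-A and 9.96, 10.00 and 9.73 in the siNELF-E arrays, against 10.15, 10.12 and 10.17 in control. Both groups lay below control, by 0.38 and 0.25 (log2 changes of -0.38 and -0.25, adjusted p = 0.503 and 0.776). In siNELF-B SMS was 9.95, 10.09 and 8.99 (-0.47, adjusted p = 0.203, or -0.20 over 13 arrays, adjusted p = 0.565), and in siNELF-C 10.37, 10.07 and 10.11 (0.04, adjusted p = 0.942).

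Neither oxidase was called in any knockdown. SMOX, spermine oxidase, was near the 40th percentile of cluster means (3.90), at 3.31 to 4.16 in the knockdowns and 3.31 to 3.72 in control, and its differences from control were 0.04 to 0.28. PAOX, which oxidises the acetylated polyamines that SAT1 makes, was 5.59 to 5.94 in the knockdowns and 5.59 to 5.88 in control. The PAOX differences were 0.17 with siNELF-A, -0.01 with siNELF-B, 0.14 with siNELF-C and 0.08 with siNELF-E, with 95% intervals that lay between -0.27 and 0.43. Adjusted p-values ran from 0.394 to 0.966 for SMOX and from 0.478 to 0.971 for PAOX.

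**Figure D4:**
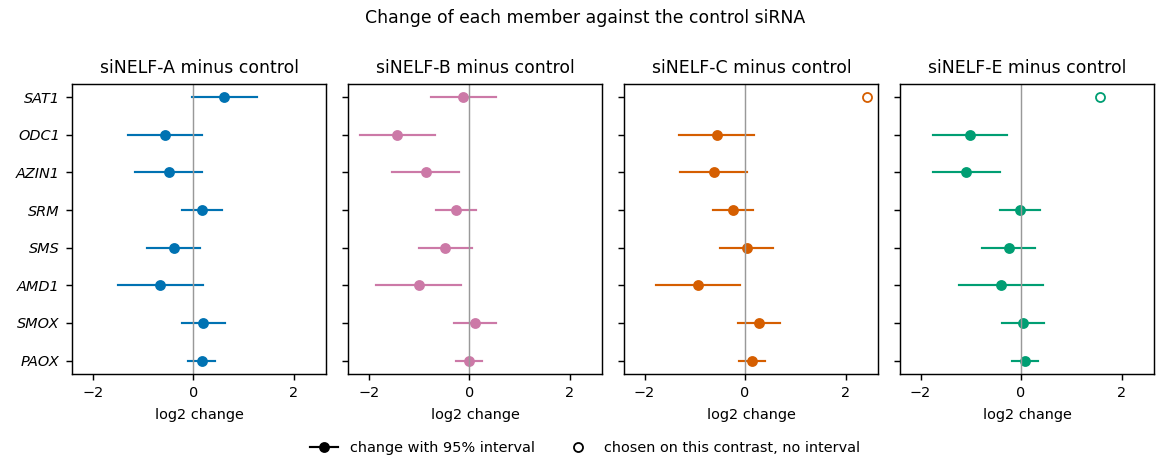
Log2 change from control (x axis) of the 8 genes (rows) in each knockdown (panels), over 15 arrays. Filled points carry 95% intervals from limma; hollow points are SAT1 in siNELF-C (2.43) and siNELF-E (1.57), shown without an interval because SAT1 was chosen on them. ODC1, AZIN1 and AMD1 lie below 0 in all 4 panels.

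Counted over the members, 0 of 8 were called in siNELF-A, 1 of 8 in siNELF-B, and 0 of the 7 tested in each of siNELF-C and siNELF-E. The siNELF-E count depends on the measure of ODC1. Its cluster shared with SNORA80B met both thresholds in siNELF-E (-1.04, adjusted p = 0.0119), as in siNELF-B. Over all 22011 clusters 3.32% were called with siNELF-A, 4.39% with siNELF-B, 6.22% with siNELF-C and 5.48% with siNELF-E. At these shares 1 call or none among 7 or 8 genes does not set the members apart. Over 13 arrays the count was 2 with siNELF-A (SAT1 higher and AMD1 lower), 3 with siNELF-B (ODC1, AZIN1 and AMD1, all lower), 2 with siNELF-C (AZIN1 and AMD1, lower) and 2 with siNELF-E (ODC1 and AZIN1, lower). The background then was 10.3% with siNELF-A, 19.2% with siNELF-B, 17.1% with siNELF-C and 10.7% with siNELF-E.

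Among the members, 4 lay below all control arrays with siNELF-A, 3 with siNELF-B, 4 with siNELF-C and 3 with siNELF-E. The share of all clusters that did so was 22.5% with siNELF-A, 16.6% with siNELF-B, 31.3% with siNELF-C and 21.1% with siNELF-E. The median change of all 8 members, SAT1 included, was -0.11 with siNELF-A, -0.37 with siNELF-B, -0.10 with siNELF-C and -0.14 with siNELF-E. Among the 7 tested, the middle change was that of SRM with siNELF-C (-0.24) and that of SMS with siNELF-E (-0.25). The median of all clusters was -0.03 with siNELF-A, -0.14 with siNELF-B, -0.08 with siNELF-C and -0.02 with siNELF-E. The median over all clusters with siNELF-B moved to 0.03 after quantile normalization, and the ODC1 change there was then -1.04 (adjusted p = 0.0442). The 4 comparisons share their control arrays.

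Between knockdowns, 0 of the members tested in the 6 pairs were called over 15 arrays. Among all clusters the share was 4.28% for siNELF-B against siNELF-A, 2.87% for siNELF-C against siNELF-A, 4.05% for siNELF-E against siNELF-A, 2.14% for siNELF-C against siNELF-B, 6.9% for siNELF-E against siNELF-B and 5.18% for siNELF-E against siNELF-C. Over 13 arrays AZIN1 was called in 1 pair, lower by 0.60 in siNELF-E than in siNELF-A (log2 change -0.60, adjusted p = 0.00343), against 9.67% of clusters in that pair.

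Probe by probe, 2 member probe sets were called over 15 arrays, both in siNELF-E and both named above, where 1.6% of 287329 probe sets were called. Over 13 arrays 38 were. Most of these belonged to AZIN1 (11 called lower with siNELF-E and 3 each with siNELF-B and siNELF-C), ODC1 (8 lower with siNELF-E and 1 with siNELF-C) and AMD1 (6 lower with siNELF-C and 4 with siNELF-B). The background over 13 arrays was 5.04% with siNELF-B, 10.9% with siNELF-C and 4.66% with siNELF-E.

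Exon usage compares each probe set with the rest of its gene, and it was called at 3 member probe sets. In siNELF-B these were 2396476 of SRM (9.63 against 8.69 in control, relative change 1.23, adjusted p = 0.0469) and 3971396 of SMS (7.70 against 6.62 in control, relative change 1.40, adjusted p = 0.0233). In siNELF-C it was 3272814 of PAOX (2.33 against 4.06 in control, relative change -1.95, adjusted p = 0.00723). That siNELF-C value was dim, below the 25th percentile of all probe-set means (2.93). The number of probe sets tested for usage was 10 for SRM, 16 for SMS and 19 for PAOX. Both SRM and SMS contain a probe set that was higher in siNELF-B while most others of the same gene were lower. Of 195170 probe sets tested for usage, 0.623% were called in siNELF-B and 0.439% in siNELF-C. All 3 were also called over 13 arrays.

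A list of 47 further genes of polyamine metabolism and its supply was read beside the members, of which 44 were measured (36 by a transcript cluster and 8 by probe-set medians). The others were not analysed here. In siNELF-A 0 of the 44 were called higher and 1 lower, with siNELF-B 0 and 4, with siNELF-C 0 and 3, and with siNELF-E 1 and 3. Clusters called lower made up 2.83% of all clusters with siNELF-A, 4.19% with siNELF-B, 5.3% with siNELF-C and 4.04% with siNELF-E, and 1.44% were called higher with siNELF-E. That excess of lower calls depends on scaling: calls were lower in 85.1% of cases with siNELF-A, 95.3% with siNELF-B, 85.2% with siNELF-C and 73.7% with siNELF-E as deposited, and after quantile normalization in 66.8% with siNELF-A, 69.1% with siNELF-B, 64.7% with siNELF-C and 58.6% with siNELF-E. The median change of the list was -0.12 with siNELF-A, -0.40 with siNELF-B, -0.33 with siNELF-C and -0.02 with siNELF-E. Over 13 arrays more genes of the list were called in each knockdown, and so were more of all clusters, at the background given above for the members. The shares in this paragraph are over 15 arrays and are no background for those calls. Over 13 arrays siNELF-B rests on 1 array. The genes called over 13 arrays and not over 15 were OAT, OAZ1, SAT2, APIP, ADI1, DHPS, SLC18B1, SLC3A2, GPC1, MAX and NFKB1.

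Transport gave 2 of the 7 genes called. SLC47A1, a proton-coupled exporter of organic cations, was 3.87, 4.15 and 4.35 in siNELF-E and 4.75, 4.79 and 4.52 in siNELF-A, against 5.82, 6.05 and 5.57 in control. It fell by 1.69 with siNELF-E (3.22-fold lower, adjusted p = 0.000216), by 1.12 with siNELF-A (adjusted p = 0.00672) and by 1.01 with siNELF-B (adjusted p = 0.0205), and with siNELF-C the difference was -0.47 (adjusted p = 0.161). SLC7A1, the cationic amino acid transporter that brings arginine and ornithine into cells, was 5.47, 5.24 and 5.12 in siNELF-E and 5.48, 5.47 and 5.32 in siNELF-C, against 6.65, 6.43 and 6.31 in control. SLC7A1 fell by 1.19 in siNELF-E (adjusted p = 0.00622) and by 1.04 in siNELF-C (adjusted p = 0.017), with no overlap in either.

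On the supply side, ASS1, argininosuccinate synthase of arginine synthesis, was lower by 2.05-fold in siNELF-B (adjusted p = 0.0222) and 1.9-fold in siNELF-E (adjusted p = 0.0162). ARG2, the mitochondrial arginase that yields ornithine, was 5.12, 4.32 and 5.07 in siNELF-C against 6.49, 5.99 and 6.19 in control (2.61-fold lower, adjusted p = 0.0315). ENOPH1, an enzyme of the methionine salvage that recycles the by-product of the synthases, was 6.52, 7.64 and 5.65 in siNELF-B against 7.80, 8.01 and 8.19 in control (2.63-fold lower, adjusted p = 0.0458). Without siNELF-B replicates 2 and 3, calls of lower values were added for ASS1 in siNELF-C (adjusted p = 0.0154), ARG2 in siNELF-B (adjusted p = 0.00767) and ENOPH1 in siNELF-C (adjusted p = 0.00021). OAT, ornithine aminotransferase, was chosen for mention after its values were seen: it was 9.10, 9.04 and 9.09 in the siNELF-E arrays, against 7.84, 7.77 and 8.02 in control. The OAT difference in siNELF-E was 2.3-fold, not called over 15 arrays (adjusted p = 0.131) and called higher over 13 (adjusted p = 0.000659). In siNELF-A the log2 change was -0.62, not called over 15 arrays (adjusted p = 0.485) and called lower over 13 (adjusted p = 0.0328). MAT2A, which makes S-adenosylmethionine, was not called, with changes from -0.56 in siNELF-C to -0.07 in siNELF-E.

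Among the antizymes, OAZ3, known mainly from testis, was 5.27, 5.92 and 5.52 in the siNELF-E arrays, against 4.69, 4.64 and 4.92 in control (0.82 higher, adjusted p = 0.0071), the single gene of the list called higher. OAZ1, the widely expressed antizyme, was 8.42, 7.70 and 7.99 in siNELF-A against 9.01, 9.08 and 9.15 in control, a change of -1.04 that did not pass over 15 arrays (adjusted p = 0.11) and did over 13 (adjusted p = 0.00195). Its change was 0.15 in siNELF-E (adjusted p = 0.91). EIF5A is the translation factor that carries hypusine, an amino acid made from spermidine, and EIF5A2 is its paralogue. EIF5A2 was 3.95, 4.51 and 3.78 in siNELF-B and 4.34, 4.69 and 4.99 in siNELF-C, against 5.40, 5.48 and 6.08 in control. EIF5A2 fell by 1.57 in siNELF-B (adjusted p = 0.00784) and by 0.98 in siNELF-C (adjusted p = 0.0341). EIF5A differed from control by 0.38 to 0.66 and was not called.

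The 5 genes whose pattern was most like that of SAT1 were LIMA1, TMEM45B, MAP2, ARL6IP5 and GPRC5A, by Pearson correlation of log2 values over the 15 arrays among 9212 clusters. Arrays of one group are repeats, so these coefficients describe mainly 5 group levels and carry no p. The genes were picked on these same arrays, so higher values with siNELF-C and siNELF-E follow from the choice. They were 0.94 for LIMA1, 0.93 for TMEM45B, 0.93 for MAP2, 0.91 for ARL6IP5 and 0.90 for GPRC5A, and 0.89 to 0.94 over 13 arrays. Ordered over 13 arrays, LIMA1 was number 1, TMEM45B 4, MAP2 6, ARL6IP5 7 and GPRC5A 9, so 3 of the 5 would not have been named. LIMA1, an actin-binding protein, stood 1.24 above control in siNELF-C and 0.92 in siNELF-E. MAP2, a microtubule-associated protein, was 6.67, 6.58 and 6.66 in siNELF-C and 6.60, 6.64 and 6.82 in the siNELF-E arrays, against 4.84, 4.95 and 4.74 in control. Unlike SAT1, the MAP2 arrays of siNELF-C and siNELF-E overlapped. GPRC5A, an orphan receptor induced by retinoic acid, was higher by 2.51 with siNELF-C, 1.22 with siNELF-E and 0.93 with siNELF-A, and TMEM45B was higher by 2.26 with siNELF-C and 1.17 with siNELF-E. ARL6IP5 was higher by 1.58 with siNELF-C, 1.00 with siNELF-E and 0.80 with siNELF-A.

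**Figure D5:**
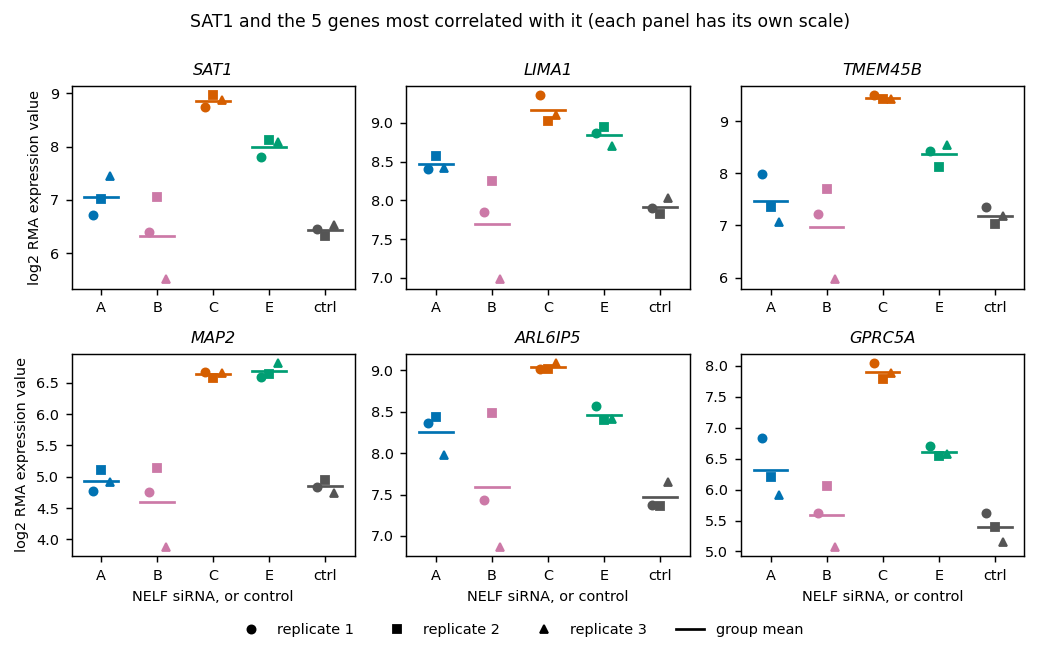
Log2 RMA value (y axis, own scale per panel) of SAT1 and the 5 genes most correlated with it by group (x axis, left to right A, B, C and E for the knockdowns, then control). Symbols are the 3 replicates and bars are group means; siNELF-C and siNELF-E lie above control in all 6 panels, and siNELF-B replicate 3 is the lowest array in every panel.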

How the data were processed

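RNA of T47D cells was hybridised to exon arrays, 15 in all, 3 for each of 5 siRNA groups. The authors deposited log2 RMA values per gene and per exon, made with ArrayAssist from core exons on hg18, per the labels. No array was dropped or scaled again. Symbols came from the platform annotation, updated through RefSeq: 14432 of 22011 transcript clusters had 1 symbol, 2408 several, and 5171 were not listed. RefSeq promoters are on GRCh38.p14 and no coordinate was moved between builds.

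Group means were fitted with limma 3.58.1 in R 4.3.3 over all clusters, all genes' exon-level medians (for ODC1 and SMS, a departure from the planned gene-level values, since no cluster carries either symbol alone) or all 287329 probe sets. Exon usage used diffSplice, leaving out probe sets whose mean was under the 25th percentile, and genes under 3 probe sets. A call needed a change of at least 1.5-fold and a p below 0.05 after Benjamini-Hochberg adjustment over all features. Intervals are 95% limma intervals. The fits were tested on simulated data.

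The members and lists were chosen with earlier results of these data known, as was leaving out siNELF-B replicates 2 and 3. Text names all 8 members, each listed pathway gene called in any knockdown, OAZ1, EIF5A and MAT2A, and the 5 genes most correlated with SAT1. Replicate numbers do not pair the samples (correlations of deviations from group means -0.30 to 0.20 between arrays of one number). Alternatives tried were other scalings (quantile, median, 75th percentile), arrays left out, single comparisons, the replicate block, a filter on dim clusters, the interquartile range as covariate, array weights, an intensity trend and exon-level medians.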

Additional observations from a re-analysis of the deposited data

How the results depend on the processing

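Over 8 genes, 4 knockdowns and the alternatives, 828 changes were recomputed, of which 731 kept direction and side of the threshold, 41 gained a call, 17 lost one, 35 turned sign and 4 untested values of SAT1 moved by more than the replicate SD. No cause was tested. The count of members called, 0 for siNELF-A, 1 for siNELF-B, 0 for siNELF-C and 0 for siNELF-E over 15 arrays, was 1, 1, 0 and 2 in that order after quantile normalization, 0, 0, 0 and 2 with arrays centred on medians, 1, 1, 0 and 2 on 75th percentiles, 2, 3, 2 and 2 without siNELF-B replicates 2 and 3, 1, 0, 2 and 2 with the control and one knockdown in the fit, 0, 1, 0 and 1 over clusters above the 40th percentile, 1, 0, 0 and 2 with the interquartile range as covariate, and 1, 3, 1 and 2 with array weights. Leaving out each array in turn gave 0 for siNELF-A, 0 to 4 for siNELF-B, 0 to 2 for siNELF-C and 0 to 2 for siNELF-E, the highest counts coming without siNELF-B replicate 2 or 3. Between knockdowns the count was 0, with 3 after quantile normalization, 1 without both siNELF-B arrays and 0 to 7 without single arrays. The pathway list had 7 genes called, 18 without siNELF-B replicates 2 and 3 and 4 to 24 without single arrays (4 without any one control array, 24 without siNELF-B replicate 2). Member probe sets called numbered 2, with 38 without both siNELF-B arrays, and usage calls 3, with 9. With the replicate block, 0 members were called for siNELF-B (ODC1, adjusted p = 0.0602), 0 probe sets and 5 pathway genes, and it added no call among the members. The numbers do not pair the arrays, so the reported fit has no block.

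In siNELF-B, SAT1 became 0.33 (quantile), 0.11 (median), 0.35 (75th percentile) and 0.52 (interquartile range), and ranged from -0.48 to 0.29 without single arrays. PAOX became 0.43 (quantile), 0.21 (median), 0.46 (75th percentile), 0.023 without siNELF-B replicates 2 and 3, 0.033 (array weights) and 0.024 (exon-level medians), and ranged from -0.068 to 0.078 without single arrays. SRM became 0.14 (quantile), 0.21 (75th percentile) and 0.023 (exon-level medians) with siNELF-B, then 0.037, 0.11 and 0.053 with siNELF-C, and 0.11, 0.11 and 0.076 with siNELF-E, where median centring gave 0.077 and the interquartile range 0.0061. With the interquartile range as covariate AMD1 became 0.038 in siNELF-B, ODC1 0.10 in siNELF-C, and SMOX -0.34 with siNELF-B, -0.060 with siNELF-C and -0.045 with siNELF-E. Without single arrays SMOX ranged from -0.11 to 0.31 with siNELF-B and from -0.090 to 0.13 with siNELF-E, SMS from -0.059 to 0.093 with siNELF-C, and SRM from -0.12 to 0.068 with siNELF-E. Array number (3 a group) limits precision. The tables used give no background measure, so dim values such as SMOX have no stated floor.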
